A study of Mus musculus with 3 samples.

Results

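The comparison described here sets a library of mouse JB6 P+ cells given the phorbol ester TPA together with CDDO against a library of the same cells given TPA alone, across every gene with at least 1 CPM in either library. CPM is the read count of a gene as counts per 1e6 reads of its library, after scaling the libraries to each other. Of 24421 genes in the deposited table, 12980 met this criterion and were compared. RNA was sequenced in 3 libraries, 1 per group. The TPA culture received TPA at 10 ng/mL, and the CDDO+TPA culture received TPA at 10 ng/mL and CDDO at 50 nM, both in medium with 1% serum every other day for 5 days. The third library is a control with no agent named, whose medium and time in culture are not given in the sources used here; its values are printed for orientation only. The labels call the cells epithelial cells of the skin, and all 3 libraries come from this 1 line.

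TPA mimics diacylglycerol, activates protein kinase C and acts as a tumour promoter in mouse skin. JB6 P+ is a mouse epidermal line in which such promoters induce anchorage-independent growth. CDDO is a synthetic oleanane triterpenoid whose reactive group modifies cysteines of KEAP1, which frees the transcription factor NRF2 to act on genes of detoxification and of glutathione and NADPH metabolism. Cell division genes are switched on in waves, those of DNA replication before those of mitosis, and the promoters of the mitotic wave often carry a short element known as the cell cycle genes homology region, or CHR.

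Reads assigned to genes numbered 8190078 in control, 7813035 with TPA and 7872089 with CDDO+TPA. Each group was sequenced once, so none of the differences was tested against the spread between cultures, and no p-value was computed. Each fold is given with a 95% interval that covers counting error only. A gene is called higher or lower here when its log2 fold change between CDDO+TPA and TPA was at least 1 in size and that interval excluded 1, a rule that describes these 2 libraries and not the treatments. The column that holds the CDDO+TPA reads is named for CDDO without TPA. No other sample's labels name CDDO, so it was read as CDDO+TPA. The header of the counts lists 7 alignments, whereas the series holds 3 libraries. If the column held another treatment, every value below would describe that treatment.

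Keratinocyte markers were detected in part. Krt5, Krt1, Krt18 and Epcam had 0 reads in all 3 libraries, where a floor of 3 counts corresponds to 0.374 CPM in control, 0.377 CPM with TPA and 0.380 CPM with CDDO+TPA. Of 14 keratinocyte markers 7 were measured, with 0 higher, 3 lower and a summed level of 24.3, 68.7 and 32.2 CPM over all 14 (here and below in the order control, TPA, CDDO+TPA). The 3 lower ones were Itgb4 with 23, 185 and 26 reads, Tgm1 with 6, 61 and 2 reads and Sfn with 24, 78 and 26 reads. Krt10 had 104, 73 and 52 reads and Pkp3 had 27, 132 and 130 reads, neither past the rule. The 12 fibroblast and mesenchymal markers summed to 3043, 1988 and 2445 CPM, with 9 measured, 1 higher and 1 lower. Thy1, Lum and Fap each had 0, 0 and 1 reads. Of 9 leukocyte markers 3 were measured, with 1 higher and 0 lower, and they summed to 52, 61.9 and 85.8 CPM; Ptprc and Cd3e had 0 reads throughout. The 7 endothelial markers summed to 66.4, 303 and 218 CPM, almost all from Vwf with 49.9, 289.6 and 198 CPM. The 8 melanocyte and Schwann cell markers summed to 30.0, 21.2 and 40.4 CPM, with Dct and Sox10 at 0 reads. The levels of these lists are given as measured, and their part in the results was not tested.

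Across the 12980 genes compared, 1027 (7.91%) had a higher and 1018 (7.84%) a lower level with CDDO+TPA, and the median log2 fold change was 0.01. This balance was the sum of 2 unlike parts. Among the 9914 genes with a mean of at least 10 CPM over the 2 libraries, 518 (5.22%) were higher and 249 (2.51%) lower. Among the 3066 genes with a mean under 10 CPM, 509 (16.6%) were higher and 769 (25.1%) lower. Most of the lower genes at these levels were close to silent with CDDO: 505 of the 769 had under 1 CPM in the CDDO+TPA library, and 98 had no read there. Their median level was 0.874 CPM in control, 3.26 CPM with TPA and 0.507 CPM with CDDO+TPA. The 518 abundant genes that were higher had medians of 27.5, 16.6 and 49.2 CPM, and the 249 abundant genes that were lower had medians of 18, 37.8 and 11.8 CPM. Below, a list is described by its counts and its median log2 fold change, to be read against these shares and this median.

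**Figure D1:**
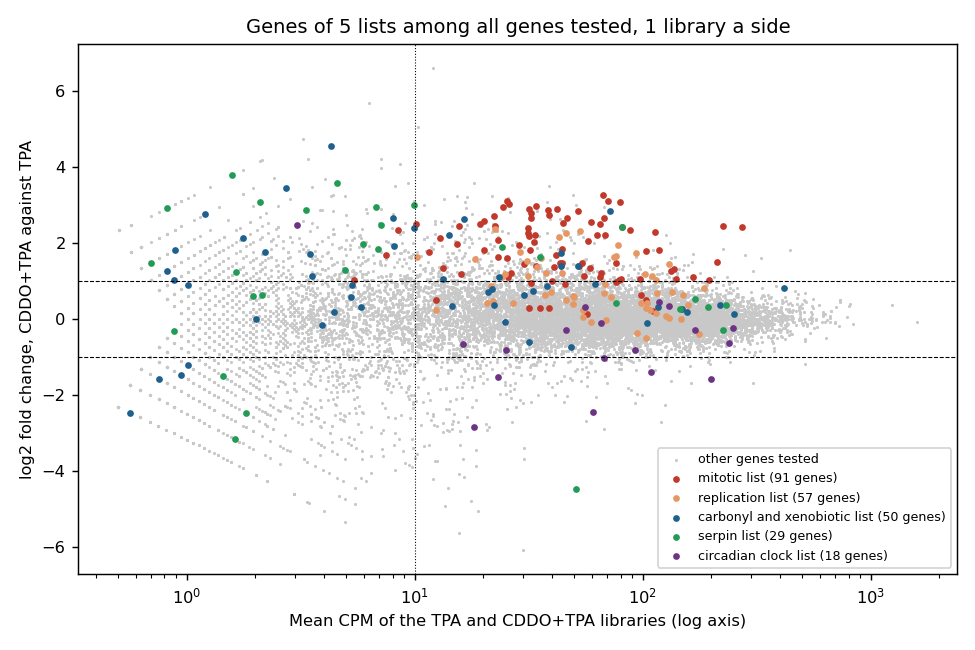
Each point is 1 of the 12980 genes, with its mean CPM over the TPA and CDDO+TPA libraries on a log axis and its log2 fold change between them; dashed lines mark a log2 fold change of 1 in either direction and the dotted line a mean of 10 CPM. The 91 mitotic genes form a band above 0 at mid abundance, the circadian clock genes lie mostly below 0, and the widest scatter, with parallel tracks of whole read numbers, is at the near-silent left.

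Genes of chromosome segregation and cell division made up the most uniform group in the comparison. All 91 measured members of the mitotic list had a positive log2 fold change, 79 were higher and 0 lower, and the median was 1.82. With a mean of at least 10 CPM the counts were 76 higher of 88. Summed over the list, the level was 3800.2, 2565 and 7962 CPM, so the CDDO+TPA library lay above the control library as well as above the TPA library. The list divides by role into 19 mitotic kinases and cyclins (15 higher, median 1.69), 44 genes of kinetochores and chromosome structure (38 higher, median 1.67) and 28 genes of the spindle and of cytokinesis (26 higher, median 2.14).

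Kif11, the kinesin that pushes spindle poles apart (mm10, chromosome 19, 37376403 to 37421859, plus strand), had 398, 100 and 960 reads, which is 49.7, 12.6 and 122 CPM. It was 9.69-fold higher with CDDO (7.88 to 12). Hmmr, a spindle-associated hyaluronan receptor, had 65.4, 14.4 and 127 CPM and was 8.78-fold higher (7.23 to 10.7). For both genes the TPA library was the lowest and the CDDO+TPA library the highest of the 3. Kif14, a kinesin of the cytokinetic midbody, had 18.2, 5.15 and 45.6 CPM, and Depdc1a had 26.8, 5.52 and 46.5 CPM. Cenpf, a large protein of the outer kinetochore, had 36.1, 16.8 and 142 CPM, and Shcbp1, a midbody-associated adaptor protein that was on none of the lists, had 18.7, 4.90 and 46.6 CPM. The log2 fold changes of these 4 genes lay between 3.02 and 3.19, and each had the same order of the libraries as Kif11.

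The most abundant member was Mki67, the Ki-67 protein that coats mitotic chromosomes, with 162, 85.2 and 459 CPM. Top2a, the topoisomerase that untangles chromosomes (chromosome 11, 98992947 to 99024189, minus strand), had 171, 69.4 and 381 CPM and was 5.49-fold higher (5.01 to 6.02). By absolute CPM, Mki67 and Top2a were among the 8 largest increases of all genes. Members nearer the size threshold were named after their values were seen: Cdk1, the kinase that drives entry into mitosis, had 64.6, 52.4 and 109 CPM, and Cdc20, the activator of the anaphase-promoting complex, had 39.9, 31.3 and 59.8 CPM with a log2 fold change of 0.93, short of the rule.

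Promoter sequences were looked up because the mitotic genes differed together. RefSeq promoters (GRCm38.p6, from 250 bases before to 50 bases after each annotated start) could be matched to 9793 of the 12980 genes, or 75.4%, and to 74 of the 91 mitotic genes. The CHR element, searched as TTTGAA on both strands, was present in 46 of these 74, or 62.2%, against 14.4% of all matched genes. The CCAAT box, searched as CCAAT on both strands, was present in 67.6% against 43.2%. The following stretches are the 100 bases before the start of genes that carry a CHR, written 5′ to 3′ on the strand of the gene, with CHR and CCAAT matches in capitals; they show a CHR close to the start with a CCAAT box before it.
Kif11, chr19:37376282-37376381, plus strand: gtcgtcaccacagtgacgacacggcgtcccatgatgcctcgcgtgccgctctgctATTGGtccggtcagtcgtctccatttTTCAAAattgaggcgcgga
Top2a, chr11:99024190-99024289, minus strand: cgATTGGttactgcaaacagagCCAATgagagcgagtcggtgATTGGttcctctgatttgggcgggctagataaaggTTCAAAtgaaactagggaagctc
Depdc1a, chr3:159495333-159495432, plus strand: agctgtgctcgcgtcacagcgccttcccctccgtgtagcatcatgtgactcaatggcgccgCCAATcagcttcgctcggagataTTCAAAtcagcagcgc
Ckap2l, chr2:129297213-129297312, minus strand: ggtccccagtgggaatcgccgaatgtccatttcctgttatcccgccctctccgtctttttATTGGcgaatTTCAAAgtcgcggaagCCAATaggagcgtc
Espl1, chr15:102296193-102296292, plus strand: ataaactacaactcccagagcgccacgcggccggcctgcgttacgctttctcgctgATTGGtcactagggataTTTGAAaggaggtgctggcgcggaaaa
Cdk1, chr10:69352913-69353012, minus strand: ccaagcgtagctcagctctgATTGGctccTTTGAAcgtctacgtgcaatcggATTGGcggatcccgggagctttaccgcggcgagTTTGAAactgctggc
Cdc20, chr4:118437344-118437443, minus strand: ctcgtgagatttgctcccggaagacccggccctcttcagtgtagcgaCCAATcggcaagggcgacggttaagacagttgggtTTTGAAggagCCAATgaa

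Counted from the start of transcription, the CHR match began at -19 in Kif11, -23 in Top2a, -16 in Depdc1a, -30 in Ckap2l, -27 in Espl1 and -18 in Cdc20, and Cdk1 held 2 matches. In all, 18 of the 46 mitotic genes with a CHR held it within the 100 bases, at a median position of -19. A CCAAT box preceded it in 11 of them, and 6 held no CCAAT box there. The stretches were chosen after the matches were seen, from the genes with both. The 46 mitotic genes with a CHR in the promoter had a median log2 fold change of 1.99, with 42 higher, and the 28 without had a median of 1.42, with 21 higher. Both sets lay far above the median of all genes, and the difference between them was not tested. A match is a description of the letters and not a bound site.

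Genes of DNA replication were shifted the same way but less uniformly. Of 57 measured members, all at a mean of 10 CPM or more, 23 were higher and 0 lower, with a median of 0.69. The counts were 6 of 16 for origin licensing, 12 of 31 for replication forks and polymerases and 5 of 10 for nucleotide synthesis. Cdc6, which loads the replicative helicase at origins, had 10.7, 7.16 and 38 CPM and was 5.31-fold higher (3.99 to 7.18). Rrm2, the regulated subunit of ribonucleotide reductase, had 26.8, 17.6 and 88.7 CPM, and Clspn, the checkpoint adaptor claspin, had 21.7, 15.8 and 76.2 CPM. Mcm10, a helicase activator, had 32.4, 15.7 and 70.6 CPM. Uhrf1, which recruits maintenance DNA methylation to replicated DNA, had 28, 32.4 and 124 CPM and was 3.83-fold higher (3.33 to 4.41). In each of these 5 genes the CDDO+TPA library was above both other libraries. The most abundant member, the single-strand binding protein gene Rpa1, had 123, 136 and 237 CPM with a log2 fold change of 0.80, short of the rule.

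The replication promoters differed from the mitotic ones in the CHR. It was present in 14.9% of the 47 replication genes and 15.6% of the 32 recombination and checkpoint genes with a promoter, close to the 14.4% of all genes, while the CCAAT box was present in 57.4% and 59.4%. The stretches of Rrm2 and Cdc6, shown as a contrast to those of Kif11 and Top2a, hold no CHR; the capitals in Rrm2 mark a CCAAT box.
Rrm2, chr12:24708154-24708253, plus strand: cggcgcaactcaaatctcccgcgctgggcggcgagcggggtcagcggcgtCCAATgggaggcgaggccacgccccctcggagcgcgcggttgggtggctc
Cdc6, chr11:98908051-98908150, plus strand: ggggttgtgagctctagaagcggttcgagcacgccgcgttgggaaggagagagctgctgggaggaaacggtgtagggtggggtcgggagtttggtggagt

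**Figure D2:**
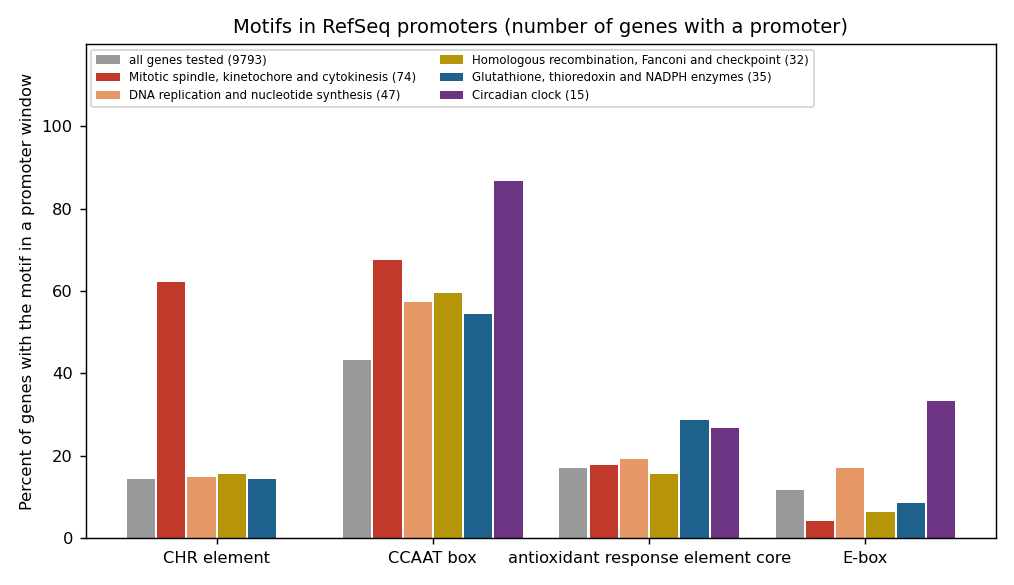
Bars give the percentage of genes whose RefSeq promoter holds each motif on either strand, for all tested genes with a promoter and for 5 lists, with the number of genes with a promoter in brackets. The CHR was present in 62.2% of mitotic promoters and in under 20% of every other set drawn, whereas the core of the antioxidant response element was present in 15.6% to 28.6% of the sets.

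Genes of homologous recombination, the Fanconi pathway and the DNA damage checkpoint were shifted in the same direction. Of 42 measured members 24 were higher and 0 lower, with a median of 1.46. Brip1, a DNA helicase, had 18.8, 8.29 and 60.4 CPM and was 7.29-fold higher (5.63 to 9.59). Fancd2, the monoubiquitinated hub of the Fanconi pathway, had 8.24, 6.53 and 37.8 CPM. Rad54b and Eme1 had 4.12, 3.39 and 21.2 CPM and 6.49, 3.52 and 21 CPM. For all 4 genes the CDDO+TPA library was the highest of the 3. Topbp1, the most abundant member, had 148, 201 and 277 CPM and did not pass the rule.

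The genes that commit a cell to division showed fewer differences. Of 25 measured G1 cyclins, E2F factors and CDK inhibitors 5 were higher and 0 lower, with a median of 0.15. E2f8, an E2F-family repressor, had 18.7, 16.4 and 62.2 CPM, Ccne1, which encodes cyclin E1, had 4.87, 7.53 and 25.7 CPM, and the pocket protein gene Rbl1 had 32.6, 36 and 107 CPM. Ccnd1, which encodes cyclin D1 and is the most abundant member, had 219.9, 336 and 379 CPM, a log2 fold change of 0.17. Among p53 targets and growth arrest genes 0 of 22 were higher and 2 lower, with a median of -0.31. Bbc3, which encodes the pro-apoptotic protein PUMA, had 110.1, 101 and 35.5 CPM and was 2.84-fold lower (2.47 to 3.26), and Gadd45g, a stress-inducible gene, had 5.99, 53.9 and 20.8 CPM. Bcl2l11, which encodes the pro-apoptotic protein BIM, had 10.6, 39.3 and 19.1 CPM. Of 12 BCL2 family genes 1 was higher and 3 were lower. Clustered histone genes were largely near silent, as only 1 of 30 had a mean of 10 CPM, with 4 higher and 2 lower; Hist1h1c, a linker histone gene, had 20.7, 10.7 and 27.6 CPM.

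Detoxification genes formed the second group in which single genes reached very large differences. Of 22 measured glutathione S-transferase genes 6 were higher and 3 lower, with a median of 0.50; at a mean of 10 CPM or more 3 of 13 were higher and 0 lower. These enzymes conjugate glutathione to electrophiles, and the largest differences were in the alpha class. Gsta4 (chromosome 9, 78191966 to 78209349, plus strand), which clears lipid peroxidation aldehydes, had 33, 49 and 564 reads, 11.6-fold higher with CDDO (8.67 to 15.9). Gsta1 had 0, 3 and 160 reads, a ratio of 53.8 to TPA (18.1 to 264). Gm3776 had 2, 0 and 189 reads, which set against 3 counts in the TPA library is at least 63.6-fold higher, and Gsta2 had 0, 0 and 100 reads, at least 33.6-fold higher. Since Gsta1, Gsta2 and Gm3776 are near-identical and their reads cannot be assigned with certainty, the sum is the safer value: 2, 3 and 449 reads. By contrast Gsto1, the most abundant transferase, had 165, 151 and 157 CPM.

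Of 40 measured genes of glutathione, thioredoxin and NADPH metabolism 6 were higher and 2 lower, with a median of 0.39, and 33 of the 40 were positive. Nqo1, a quinone reductase (chromosome 8, 107388225 to 107403205, minus strand), had 80, 139 and 997 reads, or 9.98, 17.5 and 126 CPM, and was 7.24-fold higher (6.06 to 8.71). Slc7a11, which imports cystine for glutathione synthesis, had 129, 77.6 and 254 CPM. Gss, glutathione synthetase, had 31.6, 9.54 and 32.2 CPM, and the glutaredoxin gene Glrx had 19, 20.1 and 46 CPM. Txnip, an inhibitor of thioredoxin, had 82.4, 6.15 and 24.5 CPM. The 5 genes differ in their order: Nqo1 and Glrx were highest with CDDO and low in both other libraries, Gss was low only with TPA, and Txnip stayed well below control. Txnrd1, thioredoxin reductase, was the most abundant with 345, 274 and 499 CPM and a log2 fold change of 0.87. Of the 10 measured genes for NRF2, KEAP1 and their partners 0 passed the rule in either direction, with a median of -0.11; Nfe2l1, the most abundant, had 549.7, 402 and 430.2 CPM.

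Enzymes that reduce carbonyls or act on drugs and esters included 19 higher and 3 lower of 50, with a median of 0.83. At a mean of 10 CPM or more 8 of 26 were higher and 0 lower. Ces1f, a carboxylesterase, had 4.74, 4.39 and 28.5 CPM and was 6.49-fold higher (4.53 to 9.55). Ces2g, another carboxylesterase, had 39.6, 20 and 67.4 CPM, Ptgr1, a reductase of lipid enones, had 4.12, 4.90 and 23.6 CPM, and Nqo2 had 34.7, 24 and 63.9 CPM. Aldh1a1, the retinaldehyde dehydrogenase, was near silent in the TPA library, with 9, 1 and 67 reads, a ratio of 67.6 to TPA (11.7 to 2710.3). Aldh1l2, the most abundant, had 528, 303 and 530.3 CPM. Counted by family after the values were seen, 5 of 7 Ces genes and 5 of 17 Aldh genes were higher and 0 lower, and 1 of 9 Akr genes was higher. Cytochrome P450 and AHR pathway genes went both ways, with 6 higher and 8 lower of 30: Tiparp, a target of the AHR, had 67.3, 59.5 and 129 CPM, and Cyp27b1, the vitamin D 1-alpha-hydroxylase, had 32.9, 42.8 and 10.0 CPM. Among ABC transporters 6 of 33 were higher and 4 lower; the multidrug exporter gene Abcc4 had 96.8, 63.8 and 167 CPM, Abca3 had 60.8, 41.3 and 101 CPM, and the cholesterol exporter gene Abca1 had 5.87, 13.6 and 38 CPM.

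The core of the antioxidant response element, searched as TGACNNNGC on both strands, was present in the promoter window of 17% of all genes. It was present in 28.6% of the 35 promoters of the glutathione, thioredoxin and NADPH list, in 20% of the 20 of the glutathione S-transferases and in 2.44% of the 41 of the carbonyl and xenobiotic list. For the mitotic list the share was 17.6%. These shares were not tested, and the window of 300 bases holds no distal elements.

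**Figure D3:**
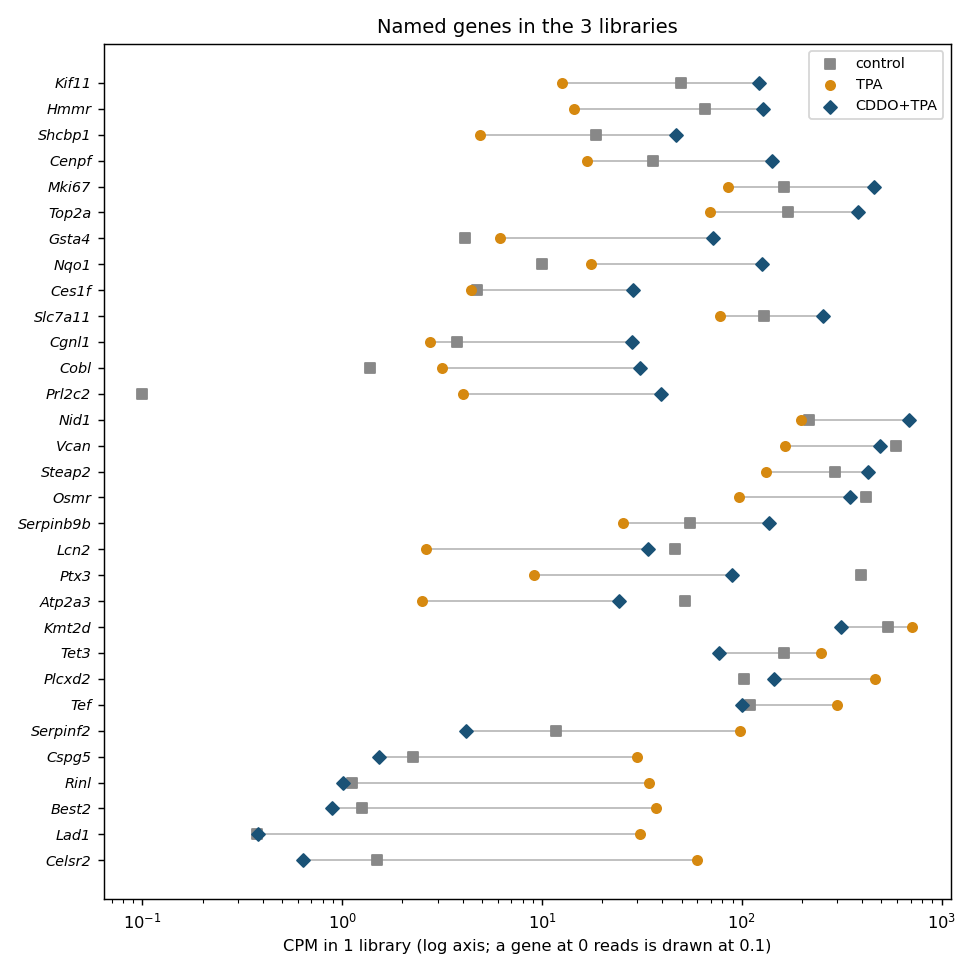
CPM of 31 named genes in each of the 3 libraries on a log axis, with a line joining TPA and CDDO+TPA; each point is 1 library and a gene at 0 reads is drawn at 0.1. Spindle genes such as Kif11 were lowest with TPA and highest with CDDO+TPA, Gsta4 and Nqo1 were high with CDDO+TPA alone, and genes from Cspg5 to Celsr2 were high with TPA alone.

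Of the 8 largest absolute increases in CPM, 3 were in genes for secreted matrix proteins, Nid1, Vcan and Fn1, and 2 were in the mitotic genes Mki67 and Top2a. Nid1, the basement membrane linker nidogen (chromosome 13, 13437602 to 13512275, plus strand), had 1740, 1567 and 5444 reads, 3.51-fold higher (3.31 to 3.71), with control and TPA alike. Vcan, the large proteoglycan versican, had 594, 164 and 494 CPM and was 3.02-fold higher (2.83 to 3.21), with control the highest. Steap2, a membrane metalloreductase, had 294, 132 and 428 CPM. Fn1, fibronectin, had 1519, 1087 and 1391 CPM, a log2 fold change of 0.36, and held more than 1 read per exonic base in both libraries, so that removal of duplicates by position, if that is what was done, would cap its counts. The cytoskeletal genes Sptbn1 and Dync1h1 had 875, 606 and 861 CPM and 922, 605 and 858 CPM and did not pass the rule.

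Of 24 elastic fibre and matricellular genes 9 were higher and 1 lower, with a median of 0.76, and 14 did not pass the rule; at a mean of 10 CPM or more 4 of 17 were higher and 0 lower. Fbln1, which encodes fibulin-1, had 50.4, 17.3 and 52.8 CPM and was 3.05-fold higher (2.51 to 3.72). Fbn1, the microfibril protein fibrillin-1, had 114, 47.3 and 101 CPM, and Matn2, which encodes matrilin-2, had 64.8, 32.9 and 73.6 CPM. In these 3 genes the CDDO+TPA library was near control and the TPA library was the low one. Of 20 small proteoglycan and hyaluronan genes 5 were higher and 3 lower, among them the glypican gene Gpc6 with 94.1, 55.9 and 139 CPM. Laminin and basement membrane genes had 2 higher and 0 lower of 12.

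Among 27 collagen genes 1 was higher and 6 were lower, with a median of -0.29. At a mean of 10 CPM or more the median was -0.04, with 1 higher and 5 lower of 19, and the summed level of all collagens was 4469, 2479 and 2811 CPM. Col5a2, a fibrillar collagen gene, was the single higher one, with 557, 27.7 and 82.5 CPM, still far below control. Col7a1, which forms the anchoring fibrils of the epidermis, had 24, 152 and 32.4 CPM and was 4.68-fold lower (4.09 to 5.38). Col20a1 had 98.6, 149.8 and 38.1 CPM, Col11a2 had 109, 139 and 38.1 CPM, and Col9a3 had 10.4, 25.5 and 4.31 CPM. Col7a1, Col20a1, Col11a2 and Col9a3 each start within 5 kb of the 3′ end of an expressed gene on the same strand, a feature described below. Col4a2, the most abundant, had 527, 281 and 431 CPM, and the fibrillar collagen genes Col1a1 and Col1a2, named here after their values were seen, had 529, 152 and 267 CPM and 506, 144 and 207 CPM; none of these 3 passed the rule. Metalloproteinases, ADAMTS proteases and TIMPs had 7 higher and 7 lower of 41; Timp1, an inhibitor of metalloproteinases, had 57.8, 23.5 and 66.5 CPM, and Mmp19 had 49.2, 21.5 and 43.2 CPM.

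Serpins were split between abundant and less abundant members. Of 29 measured serpin and plasminogen-system genes 15 were higher and 4 lower, with a median of 1.29, but at a mean of 10 CPM or more the counts were 3 higher and 1 lower of 10 and the median was 0.39. The intracellular clade B supplied most of them: counted after the values were seen, 10 of 15 Serpinb genes were higher and 0 lower, with a median of 2.42. Serpinb9b, of the granzyme-inhibitor branch, had 55.3, 25.4 and 137 CPM and was 5.40-fold higher (4.64 to 6.30). Serpinb8 had 15, 10.2 and 38 CPM and Serpinb9 had 19.7, 17.3 and 53.9 CPM. Reads of single members of this family are uncertain where copies are near-identical.

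In the other direction Serpinf2, the plasmin inhibitor alpha-2-antiplasmin (chromosome 11, 75431736 to 75439501, minus strand), had 94, 781 and 33 reads and was 23.4-fold lower (16.6 to 34.3). It was the most extreme serpin in either direction at a mean of 10 CPM or more.

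Complement and acute phase genes were higher in 10 and lower in 2 of 18, with a median of 1.10. Lcn2, which binds bacterial siderophores, had 373, 21 and 268 reads, 12.9-fold higher (8.26 to 21.2), and Ptx3, a long pentraxin of innate defence, had 3157, 73 and 707 reads, 9.77-fold higher (7.67 to 12.6). The acute phase apolipoprotein gene Saa3 had 75.4, 10.8 and 68.0 CPM, and Cp, the copper oxidase ceruloplasmin, had 153, 64.0 and 161 CPM. All 4 were low in the TPA library, and Ptx3 remained well under its control level. The 2 lower members were Cfp, properdin, with 68.3, 106 and 33.1 CPM, and C4a with 28.2, 73.7 and 23.9 CPM. Both start shortly after the 3′ end of an expressed gene on the same strand, a feature described below. Cfp starts 1.87 kb after Elk1 and C4a 539 bases after Stk19. Ptx3 lies within the span of Veph1 on the opposite strand, and Veph1 had 529, 0 and 51 reads, at least 17.2-fold higher with CDDO. Reads from exons that overlap there could not be divided by strand. Scara5, a ferritin receptor, had 72, 4 and 108 reads, and Atp2a3, a calcium pump of the endoplasmic reticulum, had 415, 20 and 192 reads.

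Cytokine lists differed in their shares past the rule. Of 18 chemokine and chemokine receptor genes 5, or 27.8%, were higher and 1, or 5.56%, lower, with a median of 0.64. The shares of all genes were 7.91% and 7.84%. The neutrophil chemokine genes Cxcl5 and Cxcl1 had 89.4, 41.1 and 94.5 CPM and 61.3, 28.5 and 57.3 CPM, while Ccl25 had 27.5, 29.1 and 10.6 CPM. Ccl2, the most abundant chemokine, had 136, 74.7 and 107 CPM and did not pass the rule. Of 59 interleukin, receptor and JAK-STAT genes 6, or 10.2%, were higher and 5, or 8.47%, lower, near the shares of all genes. Osmr, the oncostatin M receptor, had 3362, 775 and 2761 reads, 3.60-fold higher (3.32 to 3.90). It was the only one of the 33 members with a mean of 10 CPM or more that passed the rule. Interferon-stimulated genes had 6 higher and 0 lower of 37, all 6 with a mean under 10 CPM. NF-kB subunits, inhibitors and targets had 1 higher and 1 lower of 24, and the feedback inhibitor gene Tnfaip3 had 48.3, 115 and 55.2 CPM.

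The AP-1, protein kinase C, ERK feedback and EGF receptor lists each had at most 3 members past the rule in either direction. None of 9 AP-1 genes passed the rule, and Jun, the most abundant, had 306, 235 and 184 CPM. Of 20 genes for protein kinase C isoforms, diacylglycerol kinases and RasGRP proteins, the direct or near targets of TPA, 0 were higher and 3, or 15%, lower. ERK phosphatase and feedback genes had 1 higher and 1 lower of 25, the latter being Dusp8 with 175, 107 and 51.4 CPM. Of 9 EGF receptor family genes 3, or 33.3%, were higher and 0 lower; Ereg, which encodes the ligand epiregulin, had 182, 85.9 and 198 CPM.

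Of 38 other growth factor and receptor genes 3, or 7.89%, were higher and 4, or 10.5%, lower. Among platelet-derived growth factor genes the receptors went opposite ways. Pdgfra had 5.24, 34.9 and 76.9 CPM and was 2.20-fold higher (1.91 to 2.55), whereas Pdgfrb had 86.6, 81.5 and 26.1 CPM and was 3.12-fold lower (2.66 to 3.67). The ligand gene Pdgfc had 70.4, 14.3 and 30.2 CPM. The TGF-beta and BMP list had 5 higher and 3 lower of 47, or 10.6% and 6.38%, near the 7.91% and 7.84% of all genes. In it Ctgf, a matricellular target, had 42.9, 15.6 and 40.4 CPM and the stress cytokine gene Gdf15 had 94.1, 73.2 and 28.1 CPM. Of 12 mesenchymal state factors 0 were higher and 2 lower: Snai1 had 28.2, 64.9 and 29.4 CPM and Snai2 had 131, 139 and 68.7 CPM. Vim, the intermediate filament vimentin, had 268, 369 and 356 CPM. Prl2c2, a proliferin gene, had 0, 32 and 312 reads, 9.84-fold higher (6.83 to 14.6). Because the 5 Prl2c genes are near-identical copies, their sum of 0, 43 and 390 reads is the safer value, 9.15-fold higher (6.67 to 12.9).

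Lipid genes past the rule went both ways. Of 43 genes of fatty acid synthesis, activation and oxidation 4, or 9.30%, were higher and 1 lower, with a median of 0.39. The share higher lies near the 7.91% of all genes, and at a mean of 10 CPM or more it was 5.13% against 5.22%. The desaturase genes Scd2 and Fads2 had 252, 149 and 319 CPM and 44.8, 31.6 and 68.7 CPM. Lpl, lipoprotein lipase, had 175, 51.6 and 185 CPM and was 3.58-fold higher (3.21 to 4.01), and Lrp8, the apolipoprotein E receptor 2, had 57.8, 63.3 and 156 CPM. Apoe, the apolipoprotein itself, had 57.4, 73.2 and 29.4 CPM and was lower. Cholesterol efflux and lipoprotein receptor genes had 3 higher and 3 lower of 15, with a median of 0.30. Cholesterol synthesis genes had 0 higher and 2 lower of 29.

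**Figure D4:**
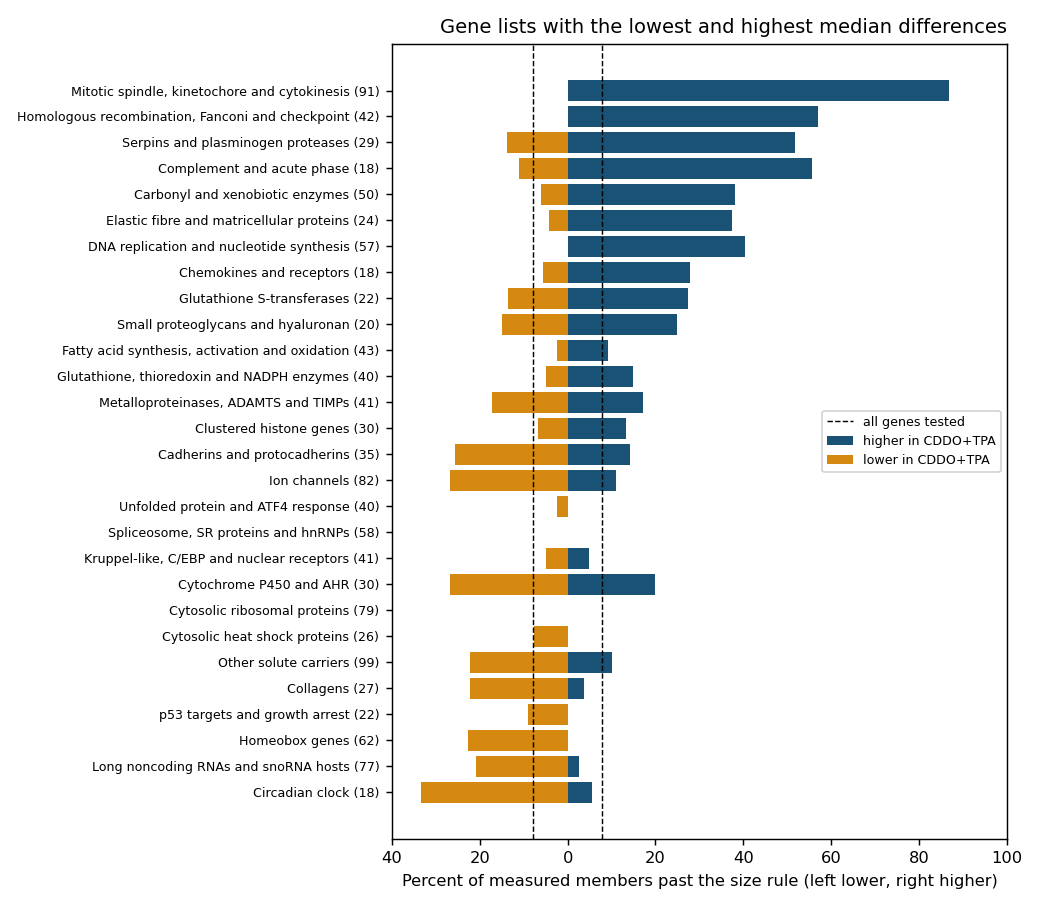
For the 28 lists of at least 15 measured genes with the lowest and highest medians, bars give the percentage of members higher (right) and lower (left), ordered by median, with the number measured in brackets; dashed lines mark the 7.91% and 7.84% of all genes. The 3 cell division and DNA repair lists have bars on the right only, whereas homeobox genes and p53 targets have bars on the left only.

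The largest absolute decrease was in Kmt2d, the histone H3 lysine methyltransferase of enhancers (chromosome 15, 98831669 to 98871205, minus strand), with 4341, 5681 and 2485 reads, 2.27-fold lower (2.16 to 2.38). Among 72 genes for histone modifying enzymes 0 were higher and 5 lower, with a median of -0.10; the 6.94% lower lies near the 7.84% of all genes. Kdm6b, a demethylase of H3 lysine marks, had 223, 331 and 151 CPM, and Crebbp, an acetyltransferase, had 203, 264 and 122 CPM. Tet3, which oxidises methylcytosine (chromosome 6, 83362374 to 83441678, minus strand), had 162, 248 and 77.0 CPM and was 3.22-fold lower (2.94 to 3.53), and Tet2 had 13.6, 19 and 9.0 CPM. These 5 genes were highest with TPA and lowest with CDDO+TPA. Of 15 DNA methylation and demethylation genes 1 was higher, Uhrf1 as above, and 2 were lower.

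Other large absolute decreases were Plcxd2, a phospholipase-like gene, with 102, 465 and 145 CPM, and Tef with 109.7, 298 and 100.4 CPM. Gigyf1 had 243, 406 and 210.2 CPM, Leng8 had 386, 484 and 269 CPM, Smcr8 had 323, 471 and 279 CPM and Fam21 had 388, 621 and 414 CPM, all short of the rule. Rn45s, the ribosomal RNA precursor, had 788, 742 and 525 CPM; its level also depends on how ribosomal RNA was handled in each library.

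The circadian clock list had the lowest median of the lists with at least 15 measured members, -0.64, with 1 higher and 6 lower of 18. It did not rank lowest when genes within 10 kb downstream of an expressed gene were left out. Per2, a repressor of the clock, had 52, 256 and 34 reads and was 7.46-fold lower (5.20 to 11.0), and Per1 had 87.0, 158 and 60.2 CPM. Ciart, a clock repressor, had 33.7, 102 and 18.6 CPM, and the output factor genes Tef and Hlf were 2.97-fold and 2.93-fold lower. Clock itself, the most abundant member, had 218, 269 and 226 CPM and did not pass the rule. The labels give no time of day for the harvest of the cultures, so clock phase and treatment cannot be told apart.

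Homeobox and T-box genes had 0 higher and 14 lower of 62, with a median of -0.50. Dlx2 had 15.8, 74.9 and 18.2 CPM and was 4.11-fold lower (3.42 to 4.96). Hoxd3 had 14, 21.5 and 5.96 CPM, Hoxc11 had 19.5, 38.4 and 11.4 CPM, Hoxb2 had 16.7, 23.6 and 8.24 CPM and Irx5 had 35.6, 56.5 and 24.1 CPM. All 5 were highest with TPA. Counted after the values were seen, 0 of 30 measured Hox genes were higher and 7 were lower, with a summed level of 888, 971 and 624 CPM. The list of long noncoding RNAs, small nucleolar RNA genes and their hosts had 2 higher and 16 lower of 77, with a median of -0.57. Only 20 of them had a mean of 10 CPM or more, and with the trend on mean expression removed the median was -0.23. Counted by family after the values were seen, 54 measured Snord and Snora genes, all with a mean under 10 CPM, had 2 higher and 9 lower. Their median was -0.57. The 13 measured Snhg host genes had 0 higher and 3 lower, with a median of -0.43. Mir17hg, host of the miR-17 cluster, had 25.1, 47.1 and 17.1 CPM, Dancr had 14.9, 18.5 and 7.60 CPM and Snhg20 had 25.7, 45.3 and 18.9 CPM, while the nuclear RNA Malat1 had 423, 352 and 349.8 CPM.

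Ion channels had 9 higher and 22 lower of 82, and solute carriers had 10 higher and 22 lower of 99. Most of these lower genes had a mean under 10 CPM. At a mean of 10 CPM or more the counts were 4 and 6 of 43 and 3 and 4 of 53. P2rx3, an ATP-gated channel, had 27.5, 8.29 and 38 CPM, whereas its relative P2rx7 had 2.87, 25.2 and 3.04 CPM. Slc9a5, a sodium-proton exchanger, had 31.3, 201 and 64.1 CPM. Cadherins and protocadherins had 5 higher and 9 lower of 35, with Cdh6 at 19.1, 28.4 and 84.8 CPM and the giant cadherin gene Dchs1 at 2.5, 23.7 and 2.79 CPM. Itga7 and Itgb4, laminin receptor subunits that both overlap a gene on the other strand, had 3.12, 28.9 and 2.66 CPM and 2.87, 23.2 and 3.29 CPM. P2rx7, Dchs1, Itga7 and Itgb4 were high in the TPA library alone.

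The 12 lowest log2 fold changes among genes with a mean of 10 CPM or more mostly shared that pattern. Celsr2, a cadherin of planar cell polarity (chromosome 3, 108390848 to 108415494, minus strand), had 12, 473 and 5 reads and was 93.7-fold lower with CDDO (39.9 to 290). Lad1, an anchoring filament protein, had 3, 246 and 3 reads, and the chloride channel gene Best2 had 10, 296 and 7 reads. Siglec1 had 5, 212 and 5 reads, Rinl had 9, 273 and 8 reads and Cpxm1 had 5, 185 and 8 reads. In these 6 genes the control library held 3 to 12 reads and the CDDO+TPA library 3 to 8, so the TPA library alone held substantial reads. Sytl1 and Cspg5 had 9, 187 and 12 reads and 18, 237 and 12 reads, B230312C02Rik had 0, 215 and 8 reads, and Mslnl and Fam180a had 44, 250 and 12 reads and 49, 277 and 17 reads. Below 10 CPM the lowest were Slc8a2 with 3, 79 and 0 reads, Cpne9 with 6, 64 and 0, Vil1 with 7, 86 and 1 and Lyl1 with 0, 55 and 0; Slc8a2 was at least 26.1-fold lower, Cpne9 at least 21.1-fold and Lyl1 at least 18.2-fold against the floor of 3 counts in the CDDO+TPA library.

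At the other end, Cgnl1 and Cobl stood among the 12 highest. Cgnl1, a tight junction protein, had 30, 22 and 222 reads, 10.2-fold higher (6.56 to 16.6), and Cobl, an actin nucleator, had 11, 25 and 244 reads, 9.85-fold higher (6.52 to 15.5). Both were low in control and TPA alike.

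Many of the lower genes began shortly after the end of another expressed gene on the same strand. Among genes with a mean of 10 CPM or more, 70 of the 249 lower genes, or 28.1%, started within 5 kb of the 3′ end of an upstream gene on the same strand whose mean was at least 10 CPM. The share was 3.86% of the 518 higher genes, 8.83% of those past the rule in neither direction and 9.05% of all genes at this level. Among genes with a mean under 10 CPM the shares were 22% of the lower, 3.15% of the higher and 11.3% of all genes. The median distance to the nearest upstream 3′ end on the strand was 14.8 kb for the lower, 59.5 kb for the higher and 41.7 kb for the remaining abundant genes. By size of the difference, the share was 42.9% of the 21 abundant genes with a log2 fold change under -3 and 44.9% of the 49 between -3 and -2. It was 3.45% of the 406 between 1 and 2 and 6.32% of the 95 between 2 and 3.

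Those upstream genes themselves hardly differed. Their median log2 fold change was -0.11, where the 70 genes that followed them had a median of -1.92. Rinl starts 304 bases after Sirt2, which had 172 and 163 CPM with TPA and CDDO+TPA. Serpinf2 starts 1.44 kb after Wdr81, with 343 and 267 CPM, and Best2 starts 3.40 kb after Asna1, with 184 and 142 CPM. Cspg5 starts 3.60 kb after Smarcc1, with 199 and 200.5 CPM. Celsr2 lies farther away, 9.37 kb after Sars, with 294 and 281 CPM. Nlgn3 and Elmo3, named here after their positions were seen, start 245 bases after Med12 and 231 bases after E2f4. The counts per gene do not show where in a gene the reads lie, so whether they belong to the gene itself was not tested.

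The abundant lower genes also had a higher GC content, with a median of 54.8% against 47.1% for the higher and 49.7% for the remaining genes, and shorter spans, with medians of 13.5, 32.6 and 22.7 kb. Their share of genes that converge on an expressed gene within 5 kb of its 3′ end on the other strand was 17.3%, against 9.07% and 13.8%. With genes within 10 kb downstream of an expressed gene left out, a setting chosen after seeing the data, 160 abundant genes were lower and 473 higher. In that setting the lower members numbered 8 in place of 14 among homeobox and T-box genes, 2 in place of 6 among collagens and 11 in place of 22 among ion channels. Among complement and acute phase genes they numbered 0 in place of 2. The circadian clock median was -0.28 in place of -0.64, above those of the noncoding RNA list, -0.52, and homeobox genes, -0.47. Of the clock genes 4 were lower in place of 6, as Per1 and Tef lie within 10 kb of the 3′ end of an expressed gene. The mitotic list had a median of 1.80, with 68 members higher and 0 lower.

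**Figure D5:**
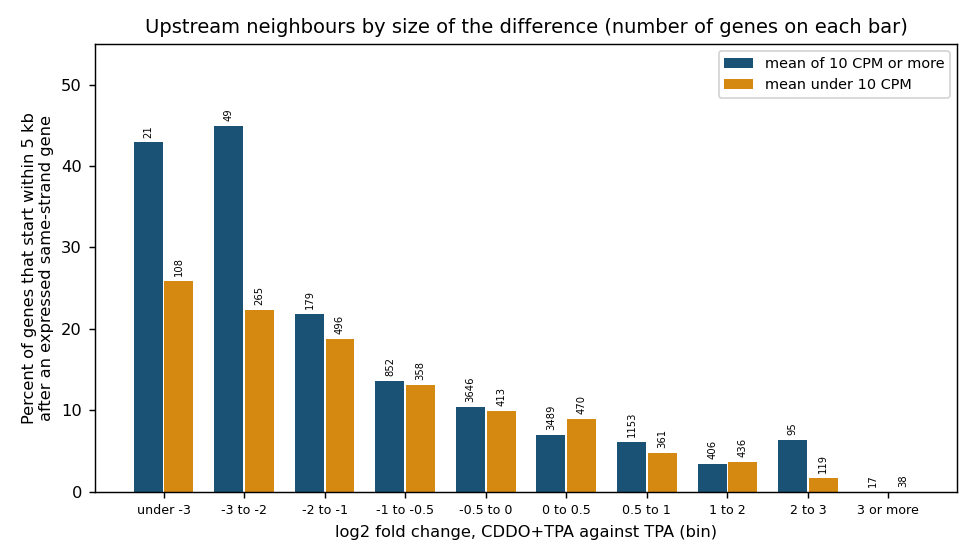
Bars give the percentage of genes that start within 5 kb of the 3′ end of a same-strand gene with a mean of at least 10 CPM, by bin of log2 fold change and in both abundance groups, with the number of genes above each bar. Among abundant genes the share was 42.9% of the 21 under -3 and 44.9% of the 49 between -3 and -2. It was 3.45% of the 406 between 1 and 2, 6.32% of the 95 between 2 and 3 and 0 of the 17 at 3 or more. Among genes with a mean under 10 CPM it was 25.9% under -3 and 3.67% between 1 and 2.

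Housekeeping groups had few members past the rule, and they do not measure the spread between cultures. Of 79 cytosolic ribosomal protein genes, 79 nuclear subunits of oxidative phosphorylation, 34 constitutive proteasome genes and 58 spliceosome genes, none passed the rule in either direction, with medians of -0.20, 0.01, 0.07 and -0.16. The same held for 45 genes of ribosome biogenesis and MYC, with a median of -0.09. The ribosomal protein genes still leaned to the lower side, as only 3 of the 79 had a positive log2 fold change. Of 40 unfolded protein and ATF4 response genes 0 were higher and 1 lower. Of 26 cytosolic heat shock genes 0 were higher and 2 lower, and Hspa1a and Hspa1b together, near-identical copies, had 288, 5356 and 2899 reads, a ratio of 0.546 (0.522 to 0.572), so that the CDDO+TPA library remained above control.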

How the data were processed

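RNA was sequenced in 3 JB6 P+ libraries, 1 per group, with 8190078, 7813035 and 7872089 reads assigned to genes. Raw read counts, 1 whole number per gene symbol and library, were deposited. Per the file headers, featureCounts 1.5.3 counted primary alignments against UCSC gene models of mm10, with no option for strand or read pairs, from alignments whose names mark duplicate removal; HISAT2, Picard and DESeq are named without a version in the submitters' processing notes. The sources used here do not say how duplicates were removed. Removal by position would cap abundant genes, of which 212 held at least 1 read per exonic base in a library.

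Library sizes were scaled by TMM in edgeR 4.0.16 (R 4.3.3), with factors 0.978, 1.02 and 1.00. Log2 fold changes used a prior count of 2. Folds are ratios of CPM without a prior, with exact conditional (Clopper-Pearson) 95% intervals from SciPy 1.17.1; reads are not independent molecules, so they cover counting error only. A fold against 0 reads is set against a floor of 3 counts in that library. The calculation was tested on simulated data. Among genes named, Ptx3 and Veph1, Itga7, Itgb4, Vil1, Lyl1, B230312C02Rik, Ciart, Col9a3, Hoxd3, Eme1, Txnip, Nqo2, Gpc6, Matn2, Cp, Timp1, Mmp19, Tiparp, Abca3 and Elmo3 overlap the span of a gene on the other strand, whose reads cannot be told apart without strand. GC content is that of the longest GENCODE M21 transcript of the same symbol.

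The 75 gene lists and the rule for named genes were chosen with earlier results of these data known. The rule names the 12 highest and 12 lowest log2 fold changes at a mean of 10 CPM or more, the 8 largest increases and decreases in CPM, the 4 highest and lowest below 10 CPM and, per list, up to 5 members past the size rule and the most abundant. A few genes it names are not reported here. Of the list symbols, 2 matched no gene. Other scalings (DESeq2 1.42.0 among them), prior counts, filters, thresholds and trend corrections were tried.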

Additional observations from a re-analysis of the deposited data

How the results depend on the processing

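No paired analysis was possible because each group holds 1 library, and for the same reason no library could be left out. Every named gene past the size rule kept its direction under every setting run. Of the fold changes of named genes and called list members, 52 left their counting interval with the GC trend removed, 9 with a prior count of 5 and 2 with the trend on mean expression removed. Over all settings, 71 counts of list members higher moved by over 1.5 times and 907 did not, and 101 counts of members lower moved and 877 did not. Some list medians near 0 changed sign. That of cytochrome P450 and AHR genes, -0.19, was 0.08 with a minimum of 5 CPM, and that of ion channels, -0.14, was 0.09 there. The collagen median, -0.29, was 0.00 and the serpin median, 1.29, was 0.63 with genes of at least 1 read admitted. Of 52 counts of genes over all settings, 44 stayed within 1.5 times of the reported value. With a minimum of 5 CPM, 519 genes were lower in place of 1018. With the abundance limit at 5 or 20 CPM, 393 or 145 genes above it were lower, in place of 249. At a log2 fold change of 1.5, 525 genes were higher, 206 higher and 118 lower at a mean of 10 CPM or more, and 13 replication genes higher. Without genes within 10 kb downstream of an expressed gene, chosen after seeing the data, 675 genes were lower, 160 of them at a mean of 10 CPM or more. These settings admit fewer or more genes by construction. Among called genes with a mean of 10 CPM or more the share that were higher was 67.5%, between 64.2% and 67.4% with other scalings, 65.4% with the GC trend removed, also chosen after seeing the data, and 59.8% with the trend on mean expression removed. Other scalings moved the median of all genes by at most 0.02 on the log2 scale in size, and removal of the GC trend moved it by 0.03. Depth limits genes under 10 CPM, which hold few reads in either library.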
